A study of Mus musculus with 8 samples.

Results

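The NF-κB genes of cultured mouse intraepithelial lymphocytes (IEL) of the intestine were followed before and after the cells were stimulated again with anti-CD3. IEL are T cells lodged within the gut epithelium, and CD3 is the signalling module of their antigen receptor. The 10 genes were the subunit genes Rel, Rela, Relb, Nfkb1 and Nfkb2, the inhibitor genes Nfkbia and Nfkbie, the related Bcl3, the enzyme gene Tnfaip3 and the target gene Cd83. The members were chosen by name, as the array IDs REL, RELA, RELB, NFKB1, NFKB2, NFKBIA, NFKBIE, BCL3, TNFAIP3 and CD83, and each had 1 ID, so the set was 10 of the 31492 IDs on the array. The cells came from C57BL/6 mice. Per the labels they first spent 48 h on 1 µg/ml of anti-CD3 together with interleukins 2, 3, 4 and 15, then 14 days in interleukin 2, and were then sorted into CD8αβ and CD8αα IEL. Every group therefore consisted of cells that had already been activated and expanded in culture. Cells of each subset were profiled at 0 h or after 24 h on plate-bound anti-CD3 at 1 µg/ml, with 2 arrays in each of the 4 groups. No group spent 24 h without anti-CD3, so the stimulus and the extra time in culture cannot be told apart, and "response" here means only the change from 0 h to 24 h. The CD8αβ IEL are labelled with an αβ receptor. The labels of the CD8αα IEL disagree about the receptor (TCRcd, TCRαα or TCRγδ), so the subset is called by its CD8 chain.

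NF-κB is a family of dimeric transcription factors that, in resting T cells, are mostly held in the cytoplasm by IκB proteins. Signals from the antigen receptor activate the IκB kinase complex, IκB is degraded, and dimers of RelA, c-Rel and p50 enter the nucleus. A slower branch processes the p100 precursor to p52, which pairs with RelB. Several genes of the system are themselves NF-κB targets, among them the inhibitors that end the signal. The arrays measured RNA and so say nothing of where the proteins were or how active they were.

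Of the members, 5 have a match to the κB consensus, the sequence pattern that NF-κB dimers bind, in the 250 bases before an annotated start of the gene. Promoter sequences were taken from RefSeq (GRCm38.p6), which gave them for 7 of the 10 members. Nfkb1, Relb and Cd83 had no entry. Both strands were searched. A match occurred in Rel, Nfkb2, Nfkbia, Nfkbie and Tnfaip3, and none was found in the windows of Rela and Bcl3. Of all 32851 promoters given there 3.90% held a match, and of the 5256 tested genes among them 5.63% held one at any of their starts. The 60-base stretches below, 5′ to 3′ on the strand of the gene, show these matches in capitals, and overlapping matches form 1 run of capitals. They are printed because the response of these genes is described next.
Rel (chr11:23771027-23771086, minus strand): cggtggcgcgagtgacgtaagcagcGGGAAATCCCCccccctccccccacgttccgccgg
Nfkb2 (chr19:46304677-46304736, plus strand): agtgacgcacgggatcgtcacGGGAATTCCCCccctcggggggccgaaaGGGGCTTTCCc
Nfkbia (chr12:55492648-55492707, minus strand): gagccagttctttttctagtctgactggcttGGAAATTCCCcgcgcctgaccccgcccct
Nfkbie (chr17:45555569-45555628, plus strand): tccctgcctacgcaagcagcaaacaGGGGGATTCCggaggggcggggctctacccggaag
Tnfaip3 (chr10:19015411-19015470, minus strand): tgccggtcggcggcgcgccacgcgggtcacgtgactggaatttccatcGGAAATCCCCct
Counted back from the start, the matches shown began 92 bases before it in Rel, 39 and 11 in Nfkb2, 29 in Nfkbia, 106 in Nfkbie and 12 in Tnfaip3. Tnfaip3 had another match that began 125 bases before its start, and Nfkb2 had 1 more before each of 2 other starts. A match of letters is not evidence of binding in these cells.

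All values below are log2 of the background-corrected, quantile-normalized bead signal. A difference of 1 is a 2-fold change, and levels of different genes are not compared because each probe has its own brightness. The arrays had median signals of 71.1 to 82.0 and detected 7747 to 9119 IDs each (24.6 to 29.0%). Replicate arrays had an r across genes of 0.956 to 0.968. Member signals were averages over 27 to 60 beads, with bead standard errors of 2.15 to 8.89% of the signal. The limit on precision was the number of arrays. Whether replicates were separate cultures or animals is not stated, so p-values reflect the spread among these samples alone, and that spread could be technical. Chip 1 held 6 arrays, and chip 2 held replicate 2 of CD8αα IEL at both times and nothing else. Of 10 T cell markers 9 were detected, and the exception was Cd8a, detected on 0 arrays. Cd8b1, the gene of the CD8β chain, was on average at 13.51 in CD8αβ and 9.63 in CD8αα IEL at 0 h. Of 8 B cell markers Cd79b and Igh-6 were detected, while Cd79a, Ms4a1, Pax5, Cd22 and Blnk were on 0 arrays.

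All 10 members passed the filter that asked for detection on both arrays of at least 1 group. Rela, Relb, Nfkb1, Nfkb2, Nfkbia, Nfkbie, Bcl3 and Tnfaip3 did so in all 4 groups. Rel did so in every group except CD8αβ IEL at 0 h, and Cd83 did so only at 24 h, so Cd83 could enter the test only by being high there. In bulk RNA, fewer cells that express a gene and less RNA per cell cannot be told apart, which holds for every change given here.

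**Figure D1:**
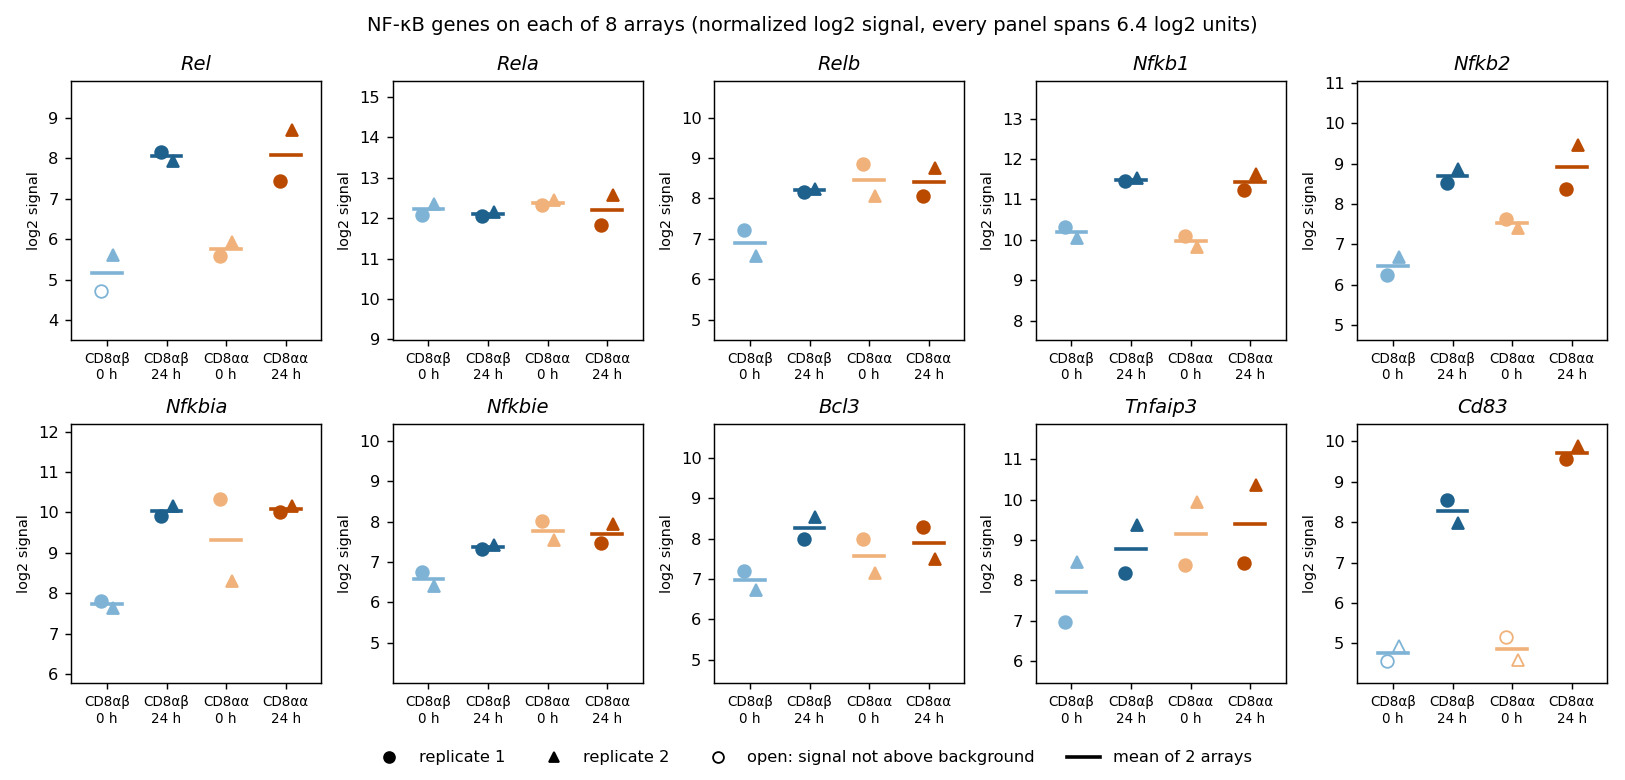
Level of each of the 10 genes (log2 normalized signal, 1 panel a gene) on the 8 arrays, by subset and time, with 1 point an array. Cd83 and Rel show the widest gap between 0 h and 24 h in both subsets, Rela shows none, and the Tnfaip3 points of replicate 2 lie above those of replicate 1 in all 4 groups.

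In CD8αβ IEL, the response of the NF-κB genes was a rise in Cd83, Rel, Nfkb2 and Nfkb1, and no member fell. These 4 of 10 members passed as higher, where 2.24% of the 7326 tested genes did, and 0 passed as lower, where 1.95% did. Cd83 adds no support to this count, since it entered the test only through its 24 h arrays. The changes of the 10 members had a median of 1.31 on the log2 scale, against -0.02 over all tested genes. In 8 of 10 members both 24 h arrays lay above both 0 h arrays, as in 28.4% of tested genes.

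In CD8αα IEL, Cd83, Rel and Nfkb1 rose. These 3 members passed as higher against a background of 4.59%, and 0 passed as lower against 6.44%. Here too Cd83 entered the test only through its 24 h arrays and adds no support to the count. The median change of the members was 0.54, against 0.02 over all tested genes. Both 24 h arrays exceeded both 0 h arrays in 4 members, Rel, Nfkb1, Nfkb2 and Cd83, as they did in 31.1% of tested genes. The share of members in this pattern was thus near the background. Of the 3 calls, those of Rel and Nfkb1 depended on single arrays, as given below.

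**Figure D2:**
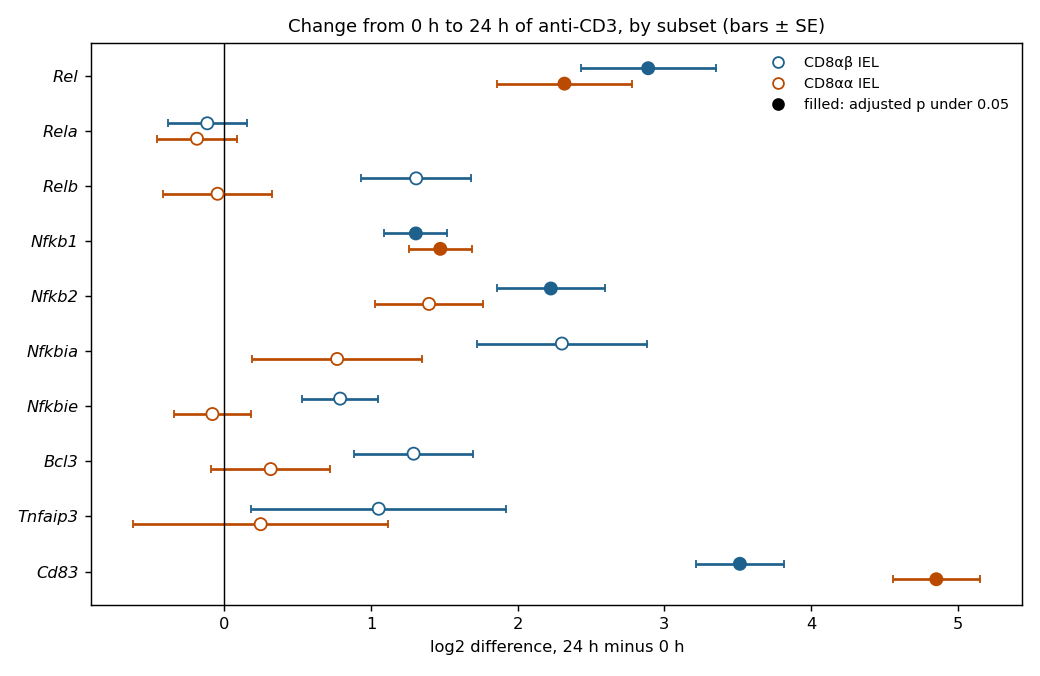
Change from 0 h to 24 h on the log2 scale with bars of ± SE for each gene, in CD8αβ and in CD8αα IEL (n = 2 arrays a group). Cd83, Rel and Nfkb1 passed the test in both subsets, Nfkb2 passed in CD8αβ IEL only, and the bars of Rela reach across 0.

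Rel encodes c-Rel, a subunit that carries a transactivation domain and is used mainly in lymphocytes. In CD8αβ IEL its level was 4.73 and 5.60 on the 0 h arrays and 8.17 and 7.94 on the 24 h arrays. In CD8αα IEL it was 5.59 and 5.92 at 0 h and 7.44 and 8.70 at 24 h. All 24 h arrays lay above all 0 h arrays, and at each time the subsets overlapped. The rise in CD8αβ IEL was 2.89 (SE 0.46, limma adjusted p = 0.0342), or at least 5.40-fold, since Rel was detected on only 1 of the 2 arrays at 0 h. That bound holds only for the background used here, which was read from single-probe IDs. With the background read from all IDs the log2 change of Rel was 0.23 in CD8αβ and 0.24 in CD8αα IEL. The rise in CD8αα IEL was 2.32 (SE 0.46, adjusted p = 0.0306), which is 4.99-fold. Its replicate 1 at 0 h was barely detected there, with an unnormalized signal of 112.6 where the detection limit of that array was 111.4.

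Nfkb1 encodes the p105 precursor of p50, the usual partner of RelA and c-Rel. It stood at 10.32 and 10.05 in CD8αβ IEL at 0 h and at 11.46 and 11.52 at 24 h. The CD8αα arrays read 10.09 and 9.83 at 0 h, then 11.24 and 11.63. Here again the times separated on all arrays, while the subsets overlapped at both times. The increase was 1.31 (SE 0.22, adjusted p = 0.0350), or 2.47-fold, in CD8αβ IEL. It was 1.47 (SE 0.22, adjusted p = 0.0199), or 2.78-fold, in CD8αα IEL. With a common median in place of quantile normalization the CD8αβ change was 1.16 and missed the threshold (adjusted p = 0.0791).

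Nfkb2 encodes p100, which is both an inhibitor and the precursor of p52. Its CD8αβ arrays read 6.24 and 6.70 at 0 h and 8.53 and 8.85 at 24 h. Its CD8αα arrays read 7.62 and 7.41 at 0 h and 8.38 and 9.45 at 24 h. The lowest group was CD8αβ at 0 h, CD8αα at 0 h lay above it without overlap, and the 24 h groups lay above both and overlapped each other. Nfkb2 rose by 2.23 in CD8αβ IEL (SE 0.37, adjusted p = 0.0350), which is 4.68-fold. In CD8αα IEL the difference of 1.40 (SE 0.37) missed the threshold with an adjusted p of 0.0570. With the replicate number as a block this difference passed (limma adjusted p = 0.0139).

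Relb encodes RelB, the partner of p52. Its CD8αβ arrays read 7.22 and 6.57 at 0 h and 8.16 and 8.24 at 24 h. The CD8αα arrays read 8.84 and 8.05, then 8.05 and 8.75. CD8αβ IEL at 0 h was thus the low group, and the other 3 groups overlapped. The CD8αβ difference of 1.31 (SE 0.37) did not pass (adjusted p = 0.0898), and the CD8αα difference was -0.05 (SE 0.37, adjusted p = 0.947), with a 95% interval of -0.94 to 0.85.

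Rela encodes RelA, the p65 subunit of the common p65 and p50 dimer. Its 8 values lay between 11.82 and 12.57, both of them CD8αα arrays at 24 h, and every group overlapped its neighbours in the order of means. The difference was -0.12 (SE 0.27, adjusted p = 0.816) in CD8αβ IEL, with a 95% interval of -0.76 to 0.53. In CD8αα IEL it was -0.19 (SE 0.27, adjusted p = 0.668), with an interval of -0.83 to 0.46.

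The inhibitor genes had their low values in CD8αβ IEL at 0 h. Nfkbia encodes IκBα, the inhibitor that NF-κB itself induces. It read 7.82 and 7.64 in CD8αβ IEL at 0 h and 9.90 and 10.15 at 24 h. The CD8αα arrays at 0 h were far apart, at 10.33 in replicate 1 and 8.30 in replicate 2 (unnormalized signals of 1541 and 372), and at 24 h they read 10.01 and 10.15. The difference in CD8αβ IEL was 2.30 (SE 0.58, adjusted p = 0.0715), and that in CD8αα IEL was 0.77 (SE 0.58, adjusted p = 0.398). Neither passed.

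Nfkbie encodes IκBε, another inhibitor of the same family. It read 6.75 and 6.40 in CD8αβ IEL at 0 h, below the 7.32 and 7.41 at 24 h. In CD8αα IEL it read 8.02 and 7.54 at 0 h and 7.46 and 7.93 at 24 h, with overlap between the times. Its differences of 0.79 (SE 0.26, adjusted p = 0.119) and -0.08 (SE 0.26, adjusted p = 0.853) did not pass.

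Bcl3 encodes a nuclear protein of the IκB family that binds p50 and p52 dimers. Its values were 7.20 and 6.74 in CD8αβ IEL at 0 h and 8.0 and 8.53 at 24 h. In CD8αα IEL they were 8.0 and 7.14 at 0 h and 8.29 and 7.49 at 24 h, so that the times overlapped there. The differences were 1.29 (SE 0.40, adjusted p = 0.107) and 0.32 (SE 0.40, adjusted p = 0.622).

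Tnfaip3 encodes A20, a ubiquitin-editing enzyme that dampens NF-κB signalling. Its level differed between the replicate numbers in every group. In CD8αβ IEL replicate 1 read 6.96 at 0 h and 8.17 at 24 h, and replicate 2 read 8.46 and 9.36. For CD8αα IEL these values were 8.37 and 8.43 in replicate 1 and 9.93 and 10.37 in replicate 2. Replicate 2 was higher by 1.5, 1.18, 1.56 and 1.93 in CD8αβ at 0 h, CD8αβ at 24 h, CD8αα at 0 h and CD8αα at 24 h. Among the 7326 tested genes, 48 (0.655%) had 1 replicate number higher in all 4 groups by at least the smallest of these gaps. The differences of 1.05 in CD8αβ IEL (SE 0.87, adjusted p = 0.478) and 0.25 in CD8αα IEL (SE 0.87, adjusted p = 0.865) did not pass.

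Cd83 encodes a surface protein of activated lymphocytes and mature dendritic cells and is an NF-κB target gene. Its unnormalized CD8αβ signals were 75.1 and 80.0 at 0 h and 320 and 282 at 24 h. Its CD8αα signals were 95.8 and 67.8 at 0 h and 969 and 916 at 24 h, and no 0 h signal of either subset counted as detected. On the log2 scale the CD8αβ arrays went from 4.57 and 4.93 to 8.55 and 7.98, and the CD8αα arrays from 5.15 and 4.58 to 9.56 and 9.87. Every 24 h array lay far above every 0 h array, and at 24 h both CD8αα arrays lay above both CD8αβ arrays. Cd83 rose at least 6.38-fold in CD8αβ IEL (fitted log2 change 3.51, SE 0.30, adjusted p = 0.00501). The rise in CD8αα IEL was at least 18.9-fold (fitted log2 change 4.85, SE 0.30, adjusted p = 0.00424). Both bounds hold only for the background used here. Among the other settings the lowest log2 changes of Cd83 were 0.29 in CD8αβ and 0.95 in CD8αα IEL.

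Because dendritic cells also make Cd83, a list of 11 dendritic cell and macrophage markers was read beside it. Itgax, Csf1r, Adgre1, Flt3, Fcgr1, Lyz2, Xcr1 and Itgam were detected on 0 arrays, and Cd68, Cd14 and Zbtb46 on some. Zbtb46, like Cd83, entered the test only through its 24 h arrays, so its rise adds no support. Its mean went from 4.59 to 6.79 in CD8αβ IEL (adjusted p = 0.0314) and from 4.61 to 6.77 in CD8αα IEL (adjusted p = 0.0210). Cd68 and Cd14 of the same list had lower means at 24 h in both subsets, and neither passed. Their adjusted p in CD8αβ and CD8αα IEL was 0.126 and 0.261 for Cd68, and 0.327 and 0.489 for Cd14. Such opposite changes can cancel in the summed signal of the list, so no conclusion is drawn from it. That sum lay between 364 and 462 at 0 h and between 387 and 391 at 24 h in CD8αβ IEL. In CD8αα IEL it lay between 274 and 393 and then between 326 and 416. The summed signal of the B cell list was lower at 24 h. In CD8αβ IEL it lay between 519 and 622 at 0 h and between 261 and 341 at 24 h, and in CD8αα IEL between 2106 and 2538 and then between 598 and 604. Its Igh-6 fell in both subsets (adjusted p = 0.0268 and 0.00541). The T cell list was lower at 24 h too, at 52987 to 57930 and then 33098 to 43028 in CD8αβ IEL, and at 48984 to 57112 and then 22755 to 36626 in CD8αα IEL, where Cd2 fell (adjusted p = 0.0370). Cdh1 was the only one of 8 gut epithelium markers on the array to be detected. It entered the test only through its 0 h arrays, and fell from a mean of 7.64 to 5.40 in CD8αα IEL (adjusted p = 0.0235). In CD8αβ IEL its means were 7.20 and 5.33 (adjusted p = 0.0506). The part of Zbtb46-expressing or B cells in the member values was not tested.

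The calls in CD8αβ IEL depended on single arrays, except that of Cd83. Rel, Nfkb1 and Nfkb2 lost their calls when any of the 4 CD8αβ arrays or either CD8αα array at 0 h was left out, with adjusted p between 0.0619 and 0.186, while their changes stayed between 2.45 and 3.33, 1.17 and 1.44, and 2.00 and 2.46. The number of members that passed was then 1 without any 1 CD8αβ array and 2 without either CD8αα array at 0 h. Without either CD8αα array at 0 h Nfkbia passed (adjusted p = 0.0132). Fewer of all tested genes passed too when 1 of these arrays was left out. With the chip as a block Nfkbia (adjusted p = 0.0497) and Bcl3 (adjusted p = 0.0474) passed as well, for 6 members in all. That block raised the calls over all 7326 tested genes as well, to 487 in either direction from 307. With the background read from all IDs instead of single-probe IDs, only Nfkb1 passed, Cd83 changed by 0.29 (adjusted p = 0.175), and the median change of the members was 0.25. Without the filter only Cd83 passed, and on the submitters' log2 values only Nfkb1 and Cd83 did, with a median of 0.81.

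In CD8αα IEL the replicates lay on different chips and did not respond alike. On chip 1 the median change of the members was 0.17 and 6 of 10 were above 0, and on chip 2 it was 1.25 and 10 of 10 were above 0. The change was larger on chip 2 in 10 of 10 members, against 50.9% of all tested genes. Relb changed by -0.79 on chip 1 and 0.70 on chip 2, Nfkbia by -0.31 and 1.85, Nfkb2 by 0.75 and 2.04, and Nfkbie by -0.56 and 0.39. Cd83 was large on both, at 4.42 and 5.29, as were Rel at 1.85 and 2.78 and Nfkb1 at 1.14 and 1.80. The remaining pairs were -0.49 and 0.12 for Rela, 0.29 and 0.35 for Bcl3, and 0.06 and 0.43 for Tnfaip3. Chip and replicate cannot be told apart here.

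**Figure D3:**
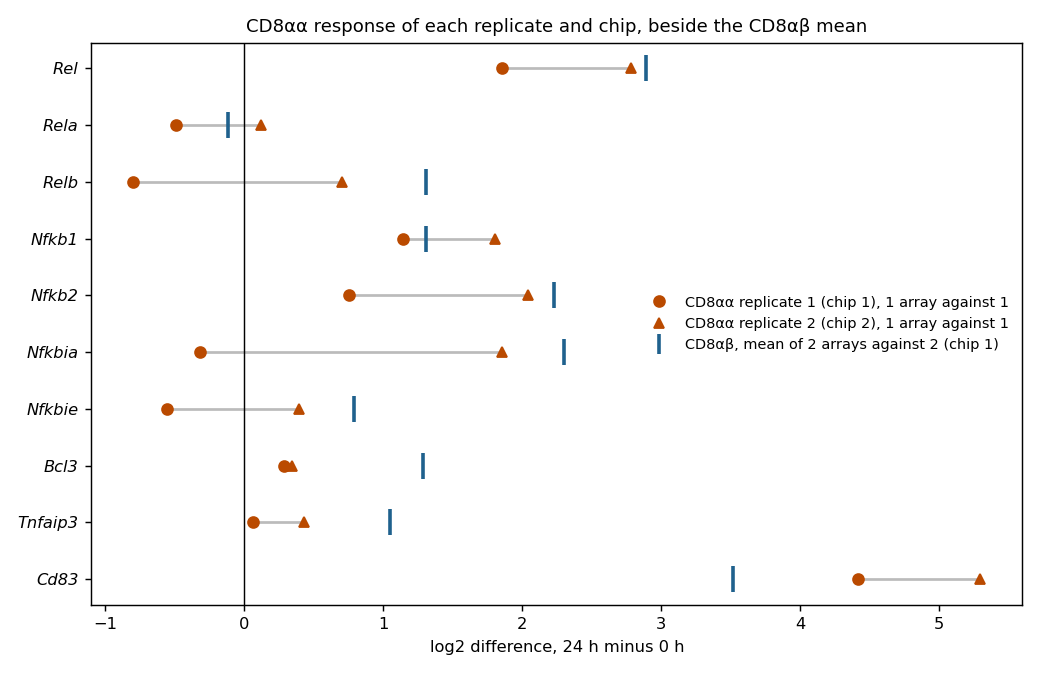
Change from 0 h to 24 h in CD8αα IEL (log2 scale) for each gene on chip 1 (replicate 1) and on chip 2 (replicate 2), 1 pair of arrays each, beside the mean change in CD8αβ IEL (vertical marks). All 10 genes have the larger value on chip 2, and Rela, Relb, Nfkbia and Nfkbie lie below 0 on chip 1.

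Both times contributed to this gap. At 0 h replicate 1 was the higher CD8αα array in 7 of 10 members (57.3% of tested genes), and at 24 h replicate 2 was the higher in 9 of 10 (44.9%). Without replicate 1 at 0 h Nfkbia passed in CD8αα IEL (1.78, adjusted p = 0.0411), and Rel (adjusted p = 0.0975) and Nfkb1 (0.0590) did not. Without replicate 2 at 0 h, Rel (0.139) and Nfkb1 (0.114) did not pass, and the same held without replicate 2 at 24 h (0.0714 and 0.0546). Without replicate 1 at 24 h Nfkb2 passed too (1.93, adjusted p = 0.0496). Rel also missed the threshold without either CD8αβ array at 24 h (0.0504). The median change of the members rose to 1.12 without replicate 1 at 0 h and to 1.03 without replicate 1 at 24 h. With the chip as a block 3 members passed, and on the chip 1 arrays alone 0 did, Cd83 included (adjusted p = 0.159). Rel did not pass with the background from all IDs, which gave a median of 0.25, nor without the filter, nor on the submitters' log2 values, while Nfkb1 and Cd83 passed in each.

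Averaged over both subsets, which uses the same arrays as the 2 responses above, 5 of 10 members rose against a background of 14.2%, and 0 fell against 15.7%. Nfkbia joined Rel, Nfkb1, Nfkb2 and Cd83, of which Cd83 entered the test only through its 24 h arrays. The mean change was 4.18 for Cd83 (SE 0.21, adjusted p = 0.000433), 2.60 for Rel (SE 0.33, adjusted p = 0.00447), 1.81 for Nfkb2 (SE 0.26, adjusted p = 0.00638) and 1.39 for Nfkb1 (SE 0.15, adjusted p = 0.00358). These 4 genes passed without any 1 array. Nfkbia had a mean change of 1.54 (SE 0.41, adjusted p = 0.0333), and it missed the threshold without any 1 CD8αβ array or either CD8αα array at 24 h (adjusted p from 0.0699 to 0.0887). Bcl3 at 0.80 (adjusted p = 0.0746) passed with the chip as a block (0.0230), while Relb at 0.63 (adjusted p = 0.114), Tnfaip3 at 0.65 (0.444), Nfkbie at 0.35 (0.183) and Rela at -0.15 (0.572) did not pass with or without the chip block. With the replicate number as a block Bcl3 (limma adjusted p = 0.0317) and Tnfaip3 (0.00994) passed. With the background from all IDs only Nfkb1 and Cd83 passed, and the median change of the members was 0.25 in place of 1.10. Nfkbia also missed the threshold without the filter and on the submitters' log2 values.

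Before stimulation, 9 of 10 members read higher on average in CD8αα than in CD8αβ IEL, but none passed, where 0.300% of tested genes passed in either direction. Of the members, 4 had an unadjusted p under 0.05, as 503 of the 7326 tested genes did. These members were Relb, Nfkb2, Nfkbia and Nfkbie. They also had both CD8αα arrays above both CD8αβ arrays, as in 19.7% of tested genes. Relb was higher by 1.55 (95% interval 0.66 to 2.44, adjusted p = 0.284) and Nfkbie by 1.20 (0.58 to 1.82, adjusted p = 0.226). The difference was 1.59 for Nfkbia (0.20 to 2.97, adjusted p = 0.613) and 1.05 for Nfkb2 (0.17 to 1.93, adjusted p = 0.572). Tnfaip3 differed by 1.44 with an interval of -0.63 to 3.50, and Nfkb1 by -0.22 with an interval of -0.74 to 0.29. The median difference of the members was 0.82, against -0.02 over all tested genes. It was 0.34 on the submitters' log2 values and 0.11 with the background from all IDs. With the chip as a block Nfkbia differed by 2.06 (adjusted p = 0.460), and no member passed. B cell markers were also higher in CD8αα IEL at 0 h, by the summed signals given above, and their part in these differences was not tested.

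At 24 h the median difference of the members between the subsets was 0.14, and 0 of 10 passed, against 0.218% of tested genes. The sign of that median rested on 1 array, since it was -0.20 without replicate 2 of CD8αα IEL at 24 h or on chip 1 alone, 0.56 without replicate 1 of that group, 0.049 without replicate 1 of CD8αβ IEL at 24 h and 0.022 with the chip as a block. It was 0.39 with a common median in place of quantile normalization and 0.057 with the background from all IDs. Cd83 was higher in CD8αα IEL by 1.45 (95% interval 0.74 to 2.16, unadjusted p = 0.00205, adjusted p = 0.333). It was the only member with an unadjusted p under 0.05, as 278 of the 7326 tested genes had. Cd83 and Nfkbie had both CD8αα arrays above both CD8αβ arrays, as in 12.0% of tested genes. Nfkbie differed by 0.33 (-0.29 to 0.95). For Relb, whose subsets stood 1.55 apart at 0 h, the difference at 24 h was 0.20 (-0.69 to 1.09), and for Nfkbia it was 0.05 (-1.33 to 1.44). Intervals of this width hold both equal levels and differences of 2-fold or more for Rel, Relb, Nfkb2, Nfkbia, Bcl3 and Tnfaip3.

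**Figure D4:**
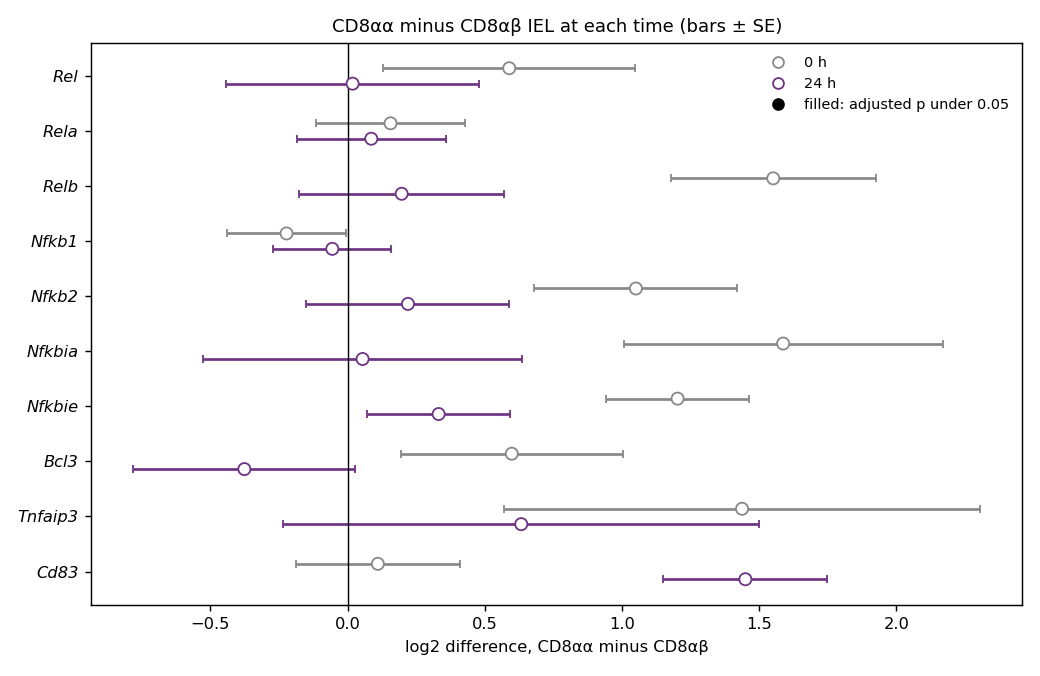
Difference CD8αα minus CD8αβ IEL (log2 scale) with bars of ± SE for each gene at 0 h and at 24 h (n = 2 arrays a group). Relb, Nfkb2, Nfkbia and Nfkbie have intervals above 0 at 0 h and Cd83 at 24 h, and no adjusted p passed.

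The difference between the responses was tested directly. It passed for 0 of 10 members and for 0% of the 7326 genes by limma, while 134 genes, 2 of them members, had an unadjusted p under 0.05. Of those members, 1 was Relb, with the smaller response in CD8αα IEL (difference -1.35, 95% interval -2.61 to -0.09, adjusted p = 1.00). The other was Cd83, for which no difference is given. It was detected on 0 of 4 arrays at 0 h, and under the background used here both of its folds are lower bounds. In 8 of 10 members the CD8αα response was the smaller, with a median of -0.82, against 0.02 over all tested genes. The member median moved between -1.15 and -0.12 when 1 array was left out. It was -0.12 without replicate 1 of CD8αα IEL at 24 h and -0.37 without replicate 1 of CD8αβ IEL at 0 h. Nfkbia differed by -1.53 (-3.49 to 0.42), Bcl3 by -0.97 (-2.34 to 0.39) and Nfkbie by -0.87 (-1.75 to 0.00), while Nfkb1 differed by 0.17 (-0.56 to 0.89). On the submitters' log2 values the median was -0.29, and with the background from all IDs it was -0.04. That Nfkb2 passed in CD8αβ IEL and not in CD8αα IEL is therefore no shown difference (-0.83, interval -2.08 to 0.42).

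Across the 8 arrays the members varied together to different degrees. Nfkb2 followed the mean of the other members most closely (Pearson r = 0.97) and Rela least (r = -0.03), with Nfkbia at 0.87, Rel at 0.85, Relb at 0.80, Cd83 at 0.76, Nfkbie at 0.75, Nfkb1 at 0.71, Bcl3 at 0.59 and Tnfaip3 at 0.57. The tested genes most like the mean of the members were Arid3a (r = 0.977), Fbxl15 (0.971), Slc17a6 (0.968), Stau1 (0.963) and H2-T23 (0.957). Slc17a6 and H2-T23 passed as higher in both responses. These correlations describe 8 arrays that share 2 times and 2 subsets.

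Other genes of the pathway were read in lists by role. The list of other NF-κB target genes held 28, of which 27 were on the array and 22 were tested, and their median change was 1.80 in CD8αβ IEL and 2.02 in CD8αα IEL. Bcl2a1b and Bcl2a1d, which are in that list, are near-identical copies that the probes may not separate.

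Tab2, an adaptor of the TAK1 kinase, was the 1 of 9 tested kinase genes and their adaptors to pass in either response. It fell by 1.60 in CD8αα IEL (SE 0.40, adjusted p = 0.0497), from 12.22 and 12.30 to 10.48 and 10.84. With the chip as a block it missed the threshold (0.0532). In CD8αβ IEL the difference was -1.40 (adjusted p = 0.0876).

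Among 6 tested TRAF and IAP adaptor genes, Traf6 rose and Traf2 fell in CD8αα IEL. Traf6, an E3 ligase adaptor, went from 6.98 and 6.64 to 7.77 and 7.85 (change 1.00, SE 0.19, adjusted p = 0.0270). Traf2, an adaptor of TNF receptors, went from 6.67 and 6.81 to 5.76 and 5.79 (change -0.96, SE 0.17, adjusted p = 0.0251). In CD8αβ IEL the changes were 0.75 for Traf6 (adjusted p = 0.0693) and -0.47 for Traf2 (adjusted p = 0.149), with Traf2 not above background on either 24 h array. None of 9 tested genes of ubiquitin editing passed in either response. Nor did Nfkbib, Nfkbid or Nfkbiz, the other IκB genes, though Nfkbib, which encodes IκBβ, passed in the mean of both responses (1.42, SE 0.42, adjusted p = 0.0461).

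Of the 22 tested target genes, 10 rose and 1 fell in CD8αβ IEL, where 2.24% and 1.95% of all tested genes did. In CD8αα IEL 7 rose and 2 fell, where 4.59% and 6.44% did. Csf2, the gene of the cytokine GM-CSF, read 7.66 and 6.59 in CD8αβ IEL at 0 h and 13.81 and 10.89 at 24 h (change 5.23, SE 1.04, adjusted p = 0.0468). Ccl4, a chemokine gene, read 10.62 and 13.05 and then 15.58 and 15.39 (change 3.65, SE 0.74, adjusted p = 0.0487), and it missed the threshold with the chip as a block (0.0519). In CD8αα IEL their changes of 3.80 and 2.04 did not pass (adjusted p = 0.0621 and 0.119), although Csf2 passed with the chip as a block (0.0497).

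Tnfrsf4, Il2ra and Gadd45b rose in both subsets. Tnfrsf4, which encodes the costimulatory receptor OX40, rose by 3.19 in CD8αβ IEL (SE 0.54, adjusted p = 0.0350) and by 2.49 in CD8αα IEL (SE 0.54, adjusted p = 0.0379). Il2ra encodes the α chain of the interleukin 2 receptor, and in CD8αα IEL it read 7.29 and 7.20 before and 10.68 and 9.92 after (change 3.05, SE 0.37, adjusted p = 0.0134). Its rise in CD8αβ IEL was 2.65 (adjusted p = 0.0271). Gadd45b, a stress-response gene, rose by 2.98 (adjusted p = 0.0272) and 2.72 (adjusted p = 0.0212).

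Irf4, a transcription factor gene of activated lymphocytes, rose in both subsets as well. It read 8.67 and 8.26 at 0 h and 11.84 and 11.92 at 24 h in CD8αα IEL (change 3.42, SE 0.28, adjusted p = 0.00624). The change in CD8αβ IEL was 2.62 (SE 0.28, adjusted p = 0.0132). Ltb and Irf1 went down. Ltb, which encodes lymphotoxin β, went from 12.77 and 12.46 to 6.94 and 9.59 in CD8αα IEL (change -4.35, SE 1.02, adjusted p = 0.0452). Its change in CD8αβ IEL was -3.47 (adjusted p = 0.0965). Irf1, an interferon-regulated transcription factor gene, fell by 1.61 in CD8αβ IEL (adjusted p = 0.0434) and by 1.68 in CD8αα IEL (adjusted p = 0.0257).

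**Figure D5:**
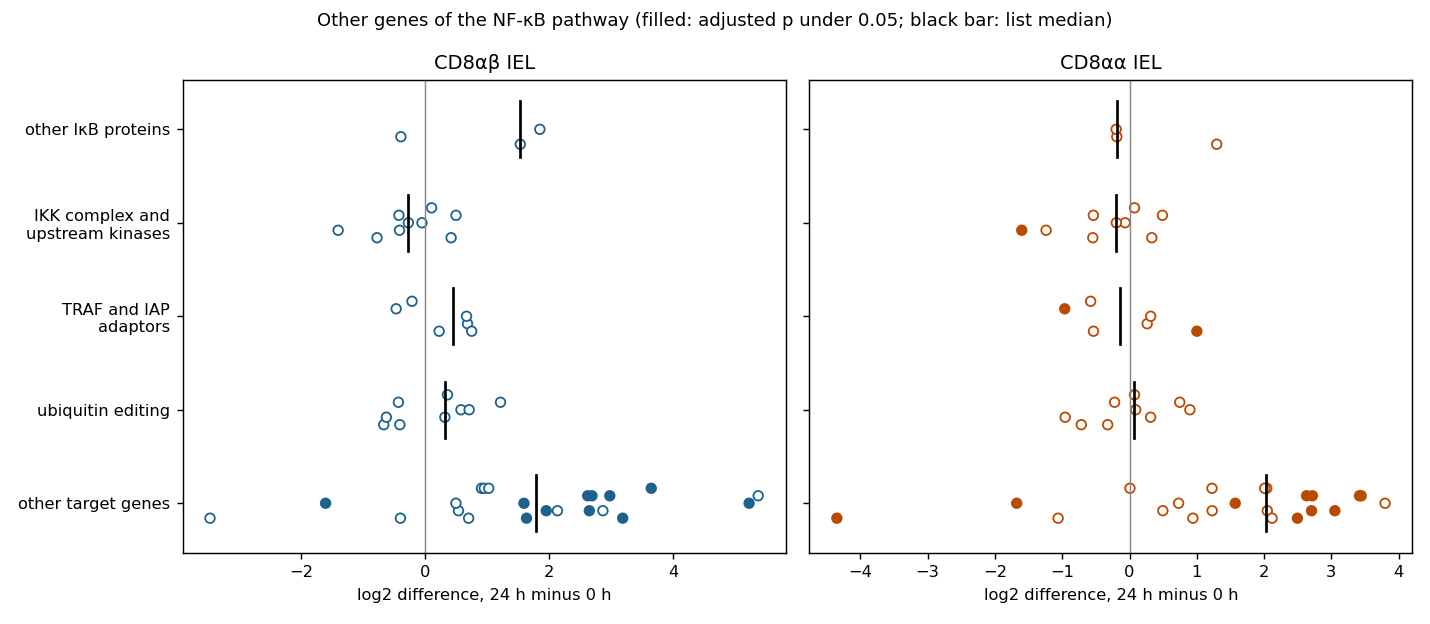
Change from 0 h to 24 h (log2 scale) of tested pathway genes other than the 10 members, in 5 lists by role, in CD8αβ and in CD8αα IEL, with 1 point a gene, filled where it passed the test, and a bar at each list's median. The other target genes spread widest, with medians of 1.80 and 2.02, and the medians of the kinase, adaptor and ubiquitin editing lists lie closer to 0.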

How the data were processed

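Each array ID has a deposited intensity, the mean signal of its beads without normalization, per the file headers, deposited with a detection p-value, a bead standard error on the signal scale and a count of beads. The deposited log2 values were made with lumi, per the submitters' processing notes, and served as an alternative. Array version, build and lumi version are not given in the sources used here.

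The intensities were corrected for background with limma's normexp model (offset 16) and quantile-normalized (limma 3.58.1, R 4.3.3), with the background read from the 22829 IDs (72.5%) whose detection p-values and bead numbers fit a single probe. The filter kept 8912 IDs that had a detection p under 0.01 on both arrays of 1 or more groups, and the brightest ID per named gene gave 7326 genes. The limma fit took all 8 arrays with 1 mean for each group (4 residual degrees of freedom), and p-values were adjusted by Benjamini-Hochberg over all tested genes of each of the 6 comparisons, at 0.05. The SE is moderated, and intervals are 95%. An "at least" fold sets each undetected array at the dimmest single-probe signal detected on it, or at its own value if higher. The model was tested on simulated data.

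All members were named, with up to 3 genes per direction from each other list, those with the largest changes that passed in each response. Members, lists and tests were chosen with earlier results of these data known. Alternatives were another background, offset, normalization, filter and variance prior, every ID, the submitters' values, chip and replicate blocks, chip 1 alone, and each array left out. Some results are not reported here.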

Additional observations from a re-analysis of the deposited data

How the results depend on the processing

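Over 660 member differences under settings other than leaving out an array, 607 kept direction and side of the threshold, 23 lost a call, 12 gained one and 18 changed sign. Over 480 with 1 array left out these numbers were 415, 32, 4 and 29. No value that changed sign passed. Where a value moved, the cause was not tested unless fewer arrays or genes were used.

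With the background from all IDs, the members called were 1 in CD8αβ IEL and 2 in the mean of both responses. The genes called were 141 in CD8αβ IEL, 370 in CD8αα IEL, 1325 in the mean, 0 between the subsets at 0 h, 1 at 24 h and 1 for the difference of the responses. The difference of the responses turned to 0.017 for Rel and 0.035 for Nfkb2. The submitters' log2 values gave 2 members in CD8αβ IEL, and 11 and 6 genes between the subsets at 0 h and 24 h. A common median in place of quantile normalization gave 451 genes in CD8αα IEL and 35 between the subsets at 0 h, and turned Nfkb1 between the subsets at 24 h to 0.17 and the Rela difference of the responses to 0.11. Without a filter, 1 member and 172 genes were called in CD8αβ IEL, 480 genes in CD8αα IEL, and 2 between the subsets at each time. Testing every ID gave 46 and 30 between the subsets.

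The chip as a block gave 487 genes in CD8αβ IEL and 9 between the subsets at 0 h. It turned Rela to -0.063 between the subsets at 0 h, and at 24 h Rel to -0.38, Rela to -0.13, Bcl3 to 0.039 and Tnfaip3 to -0.24. Chip 1 alone gave 2 members and 59 genes in CD8αβ IEL, 0 members and 0 genes in CD8αα IEL, 536 genes in the mean of both responses and 0 between the subsets at either time. There, Nfkbia in CD8αα IEL was -0.31 and the Nfkb1 difference of the responses -0.16. Between the subsets at 24 h chip 1 gave a member median of -0.20, with Rel at -0.61, Rela at -0.29, Relb at -0.15, Nfkb2 at -0.32, Nfkbia at -0.014, Bcl3 at 0.023 and Tnfaip3 at -0.33.

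The deviations of same-numbered arrays from the means of their groups correlated (r between 0.493 and 0.664), but the labels do not say that the number marks a shared culture or day. With the replicate number as a block, 8 members and 1992 genes were called in CD8αβ IEL, Tnfaip3 among them (1.05, limma adjusted p = 0.0155). In CD8αα IEL 2639 genes were called, Nfkb2 among them (1.40, limma adjusted p = 0.0139). The mean of both responses gave 3752 genes, where Tnfaip3 passed too (0.65, limma adjusted p = 0.00994). Between the subsets 116 genes were called at 0 h, 1 of them a member (Tnfaip3, 1.44, limma adjusted p = 0.0281), and 42 at 24 h.

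Leaving out each array in turn gave 1 to 4 members and 18 to 242 genes in CD8αβ IEL, 1 to 4 members and 8 to 577 genes in CD8αα IEL, 1001 to 1817 genes in the mean of both responses, and 0 to 10 genes between the subsets at each time. In CD8αβ IEL Rela ranged from -0.25 to 0.020. In CD8αα IEL the ranges were -0.56 to 0.19 for Rela, -0.44 to 0.35 for Relb, -0.24 to 1.78 for Nfkbia, -0.32 to 0.16 for Nfkbie, -0.11 to 0.75 for Bcl3 and -0.72 to 1.21 for Tnfaip3. Rela in the mean of both responses ranged from -0.34 to 0.035 and Cd83 between the subsets at 0 h from -0.17 to 0.39. Between the subsets at 24 h the member median ranged from -0.20 to 0.56, Rel from -0.61 to 0.65, Rela from -0.29 to 0.46, Relb from -0.15 to 0.55, Nfkb1 from -0.25 to 0.14, Nfkb2 from -0.32 to 0.76, Nfkbia from -0.069 to 0.18, Bcl3 from -0.78 to 0.023 and Tnfaip3 from -0.33 to 1.60. For the difference of the responses the ranges were -1.20 to 0.061 for Rel, -0.44 to 0.30 for Rela, -0.030 to 0.36 for Nfkb1 and -1.77 to 0.16 for Tnfaip3. Rel at 0 h in CD8αβ IEL and Cd83 at 0 h in both subsets lay near or below background. Their folds are therefore lower bounds, and only under the background from single-probe IDs. Rel on replicate 1 of CD8αα IEL at 0 h was only just above background.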
